A study of Homo sapiens with 12 samples.

Results

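The Notch pathway genes described here were 3 receptors (NOTCH1, NOTCH2, NOTCH3), 5 ligands (DLL1, DLL3, DLL4, JAG1, JAG2) and 2 transcription factors of the HES family (HES1, HES6). They were chosen by symbol, as the 10 rows carrying these names among the 35337 gene rows of the expression table. All 10 had reads, and 9 passed the filter on low values (5 normalised read counts on average over the 12 samples), as did 13847 genes of the table. JAG1 was the member that stayed under the filter.

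Expression was measured by CEL-seq2, which reads the 3′ ends of poly(A) transcripts, in the EndoC-βH3 line, human cells of fetal pancreas origin with beta-cell properties. Every sample came from this line, which is labelled WT and carries transgenes for hTERT, for the SV40 large T antigen and for a CreER recombinase. The 6 non-senescent samples were untreated cultures, and the 6 senescent samples had received 4-hydroxytamoxifen for 3 weeks, which activates the recombinase and removes the hTERT and large T transgenes. The question was how the expression of the Notch genes differs between the groups, and whether it does so alike in samples titled A (2 per group) and B (4 per group), read here as batches. Drug, recombination and senescence occurred together in the treated group, so their parts cannot be told apart, and no label says whether the samples of a group were separate cultures, so p-values measure only the spread between these samples.

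In Notch signalling a membrane ligand of the Delta-like (DLL) or Jagged (JAG) family on a cell binds a Notch receptor on its neighbour. The receptor is then cut by ADAM proteases and by the γ-secretase complex, and its freed intracellular part joins the DNA-binding protein RBPJ and a Mastermind coactivator to switch on targets such as HES1. In the developing pancreas HES1 represses NEUROG3, the factor that commits progenitors to the endocrine lineage, whereas HES6 is known as a family member that opposes HES1 activity.

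The promoters of both HES genes are shown because these members are the transcription factors of the set. The promoters differ in the sequence letters that Notch factors are known to bind. The stretches are the 250 bases before the RefSeq start sites on GRCh38.p14, chr3:194135898-194136147 on the plus strand for HES1 and chr2:238240039-238240288 on the minus strand for HES6, written 5′ to 3′. Capitals mark the RBPJ site GTGGGAA, the N-box CACNAG and the class C site CACGNG, on either strand; the latter are sequences to which HES repressors bind.
HES1: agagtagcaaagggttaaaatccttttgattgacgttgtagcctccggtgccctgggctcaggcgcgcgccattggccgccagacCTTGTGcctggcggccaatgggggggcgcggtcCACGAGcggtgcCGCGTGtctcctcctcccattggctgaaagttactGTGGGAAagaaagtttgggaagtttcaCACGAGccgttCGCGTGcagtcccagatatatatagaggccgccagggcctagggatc
HES6: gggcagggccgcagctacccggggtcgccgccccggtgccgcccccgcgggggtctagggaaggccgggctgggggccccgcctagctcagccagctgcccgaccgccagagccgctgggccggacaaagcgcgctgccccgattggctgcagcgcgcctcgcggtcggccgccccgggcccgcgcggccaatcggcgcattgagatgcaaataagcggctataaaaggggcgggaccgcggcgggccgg
The HES1 stretch held 1 RBPJ match, 85 to 79 bases before the start, 3 N-box matches and 4 class C matches, of which 2 were letters shared by an N-box and a class C match. The HES6 stretch held none of these letters, was richer in G and C (77.2% against 59.2%), and lies inside the GENCODE span of the gene because of a longer annotated transcript. The table of promoter sequences matched 8 of the 10 members. Among those 8, the RBPJ letters occurred only in HES1, the N-box in HES1 and NOTCH3, and the class C site in HES1, NOTCH3, DLL4 and JAG2. Over 35116 promoters of the same length the RBPJ letters occurred in 5.43%, the N-box in 32.0% and the class C site in 26.7%. Letters of the CCAAT box (CCAAT, in 32.0% of promoters) and of the TATA box (TATAAA, in 10.7%) were searched after the sequences had been read. HES1 held 3 CCAAT matches and DLL4 held 1, while HES6 held 2 CCAAT matches and a TATA match 30 to 25 bases before its start. A match describes letters only.

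**Figure D1:**
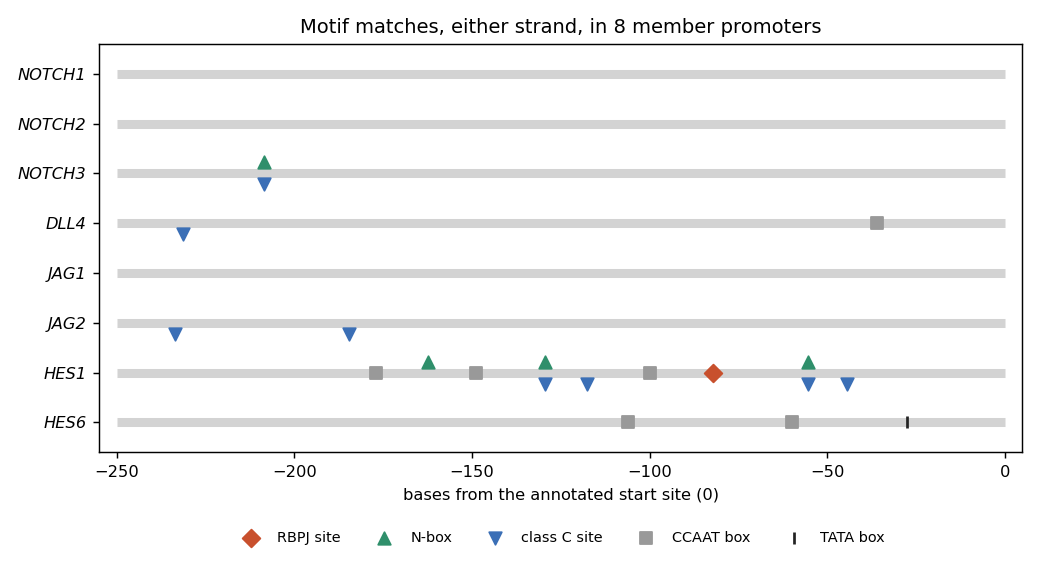
Positions of motif matches on either strand in the promoters of 8 members, in bases before the annotated start site (0 on the x axis), with a row per gene and a symbol per motif. HES1 carries the RBPJ match, 3 of the 4 N-box matches and 4 of the 8 class C matches, and the rows of NOTCH1, NOTCH2 and JAG1 are empty.

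Depth was 8873569 to 17106776 reads per library in batch A but 4672924 to 7063264 in batch B, so low genes were measured with less counting error in A but with fewer samples. Within each batch every senescent library was deeper than every non-senescent one. The non-senescent libraries had at most 12792199 reads in A and 5746836 in B, the senescent ones at least 13059934 and 5973370. Read sums given below are not corrected for depth, while normalised read counts are. All 12 beta-cell markers had reads in every library. Of the markers of other cells, 6 of 7 duct, 5 of 6 endothelial, 7 of 8 mesenchymal, 5 of 6 acinar and 4 of 5 immune genes had a mean under 20 normalised read counts, and VWF, TEK, PDGFRB and CD3E had no reads. Among these lists KRT19 (mean 311 to 125), ESAM (32.0 to 8.25) and PTPRC (13.5 to 3.26) fell and CPA1 rose (43.6 to 211). TERT, whose introduced copy cannot be told apart from the gene itself, had 47.7 to 137 normalised read counts in non-senescent and 78.5 to 136 in senescent libraries (adjusted p = 0.107, limma).

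A gene was called changed when limma gave a Benjamini-Hochberg adjusted p under 0.1 and the fold change exceeded 1.5, on log2(normalised read count + 1), with batch as a term. By this rule NOTCH1 and HES1 rose in senescent cells, HES6 and NOTCH2 fell, and no ligand was called. That was 4 of the 9 tested members, where 23.4% of all tested genes were called, 11.6% higher and 11.8% lower; by adjusted p alone the same 4 members and 45.5% of all tested genes passed. Of these 4, NOTCH1 and NOTCH2 passed the filter only through the group where they were higher, so this share is no support for more change among members. The median log2 fold change was 0.14 over the 9 members and 0.01 over all tested genes. In 2 members, NOTCH1 and HES6, the groups did not overlap in either batch and differed in the same direction, as did 23.8% of all tested genes. In bulk RNA, less RNA per cell and fewer cells that express a gene cannot be told apart.

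**Figure D2:**
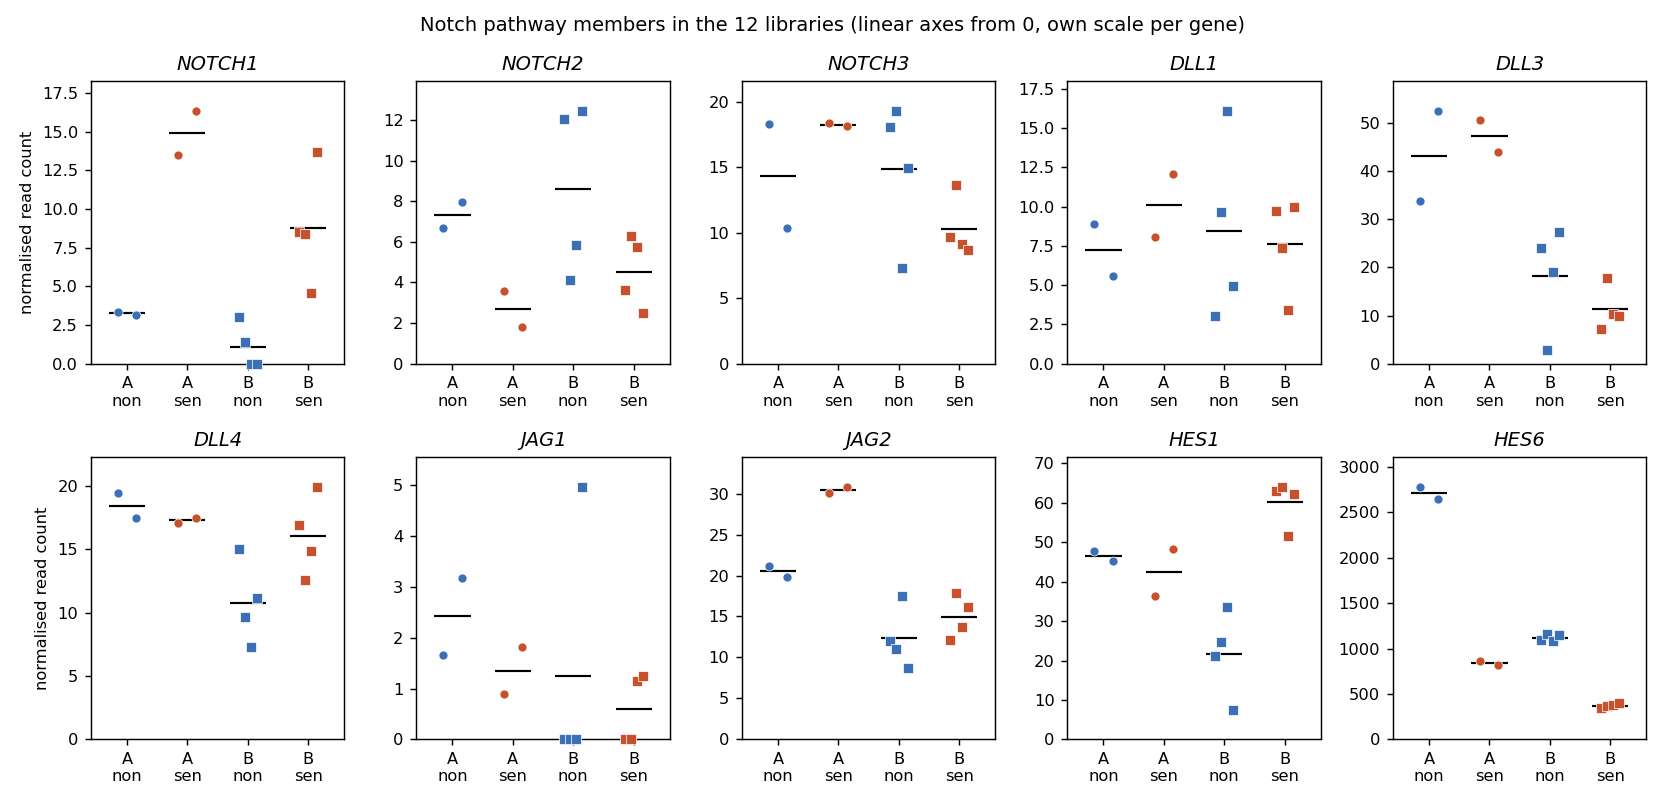
Normalised read counts of the 10 members in the 12 libraries, on linear axes from 0 with a scale for each gene; circles are batch A, squares batch B, blue non-senescent, red senescent, and black lines are means. The groups are apart in both batches for NOTCH1 and HES6, in batch B alone for HES1, and in batch A alone for NOTCH2 and JAG2.

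NOTCH1, a receptor encoded at chr9:136494433-136546048 (GRCh38, minus strand, 34 exons), had few reads in non-senescent cells and rose in senescent ones. In batch A it had 3.33 and 3.18 normalised read counts in non-senescent libraries and 13.5 and 16.3 in senescent ones. In batch B it had 3.01, 1.38, 0 and 0 in non-senescent libraries and 8.48, 8.40, 4.58 and 13.7 in senescent ones. The lowest senescent library thus lay above the highest non-senescent one. The fitted log2 fold change was 2.23 (SE 0.44, 95% interval 1.30 to 3.16, adjusted p = 0.000648, limma), and it was 1.89 within batch A and 2.40 within batch B. The two-sided exact permutation test within batches gave p = 0.00476, the smallest its 420 arrangements allow. NOTCH1 passed the filter only through the senescent group, where its mean was 10.8 against 1.82, so its place among the tested genes is no support for a difference; without the filter the adjusted p was 0.00135 (limma). The values rest on few reads, 13 in all 6 non-senescent against 87 in all 6 senescent libraries, and the size of the log2 fold change moved with the pseudocount, from 3.49 at 0.1 to 0.92 at 8.

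NOTCH2, the receptor at chr1:119911553-120100779 (minus strand), went the other way. It had 6.67 and 7.95 normalised read counts in the non-senescent libraries of batch A and 3.59 and 1.81 in the senescent ones. In batch B the non-senescent libraries had 12.05, 4.13, 5.84 and 12.4, and the senescent ones 3.64, 6.30, 5.72 and 2.49. The groups were apart in batch A and overlapped in batch B. The log2 fold change was −0.89 (SE 0.38, 95% interval −1.70 to −0.09, adjusted p = 0.0747, limma; exact permutation p = 0.0238). NOTCH2 passed the filter only through the non-senescent group (mean 8.18 against 3.92), and without the filter it was not called (adjusted p = 0.125, limma). The call was close to its limit: it was lost in 5 of 14 alternatives and in 7 of the 12 fits that left out a library. NOTCH2 shares near-identical sequence with the NOTCH2NL genes, of which the table had a row for NOTCH2NL; that row also fell, by 1.04 on the log2 scale (mean 19.3 to 8.76, adjusted p = 0.0205, limma), and how reads were split between the genes was not tested.

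NOTCH3, the receptor at chr19:15159038-15200995 (minus strand), was not called. Its lowest, median and highest normalised read counts were 7.31, 16.5 and 19.3 in non-senescent and 8.72, 11.7 and 18.4 in senescent libraries, which overlapped in both batches. The log2 fold change of −0.16 had a 95% interval of −0.79 to 0.47 (adjusted p = 0.711, limma), so a change of the size seen in NOTCH1 lay outside it. The sign differed between batches, with 0.38 in A and −0.43 in B.

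As a description of the same reads, the shares of the 3 receptors differed between groups. NOTCH4, a receptor outside the 10 members, is left out of these sums and shares. It had 42.2 to 99.4 normalised read counts in non-senescent and 19.3 to 88.5 in senescent libraries. That exceeded the 3 receptors together in every library except the senescent ones of batch A, so shares of all Notch receptors would be lower. Together the 3 receptors had 13.2 to 33.1 normalised read counts in non-senescent and 19.5 to 36.2 in senescent libraries. These sums overlapped in batch B and were apart in batch A (21.5 and 28.3 against 35.5 and 36.2). NOTCH4 went the other way in batch A (42.2 and 56.4 against 24.2 and 19.3), so the sums do not describe Notch receptors as a whole. NOTCH1 supplied 13 of 149 reads of these 3 receptors (8.72%) over the non-senescent and 87 of 221 (39.4%) over the senescent libraries. NOTCH2 supplied 31.5% and 12.2%, and NOTCH3 59.7% and 48.4%. By library the NOTCH1 share was 0% to 14.8% in non-senescent and 23.5% to 55.0% in senescent cells, without overlap. The counting error of single libraries was wide: 4 of 27 reads at the upper end of the non-senescent range gave a 95% Wilson interval of 5.92% to 32.5%, and 4 of 17 at the lower end of the senescent range gave 9.56% to 47.3%. The shares at 0 were 0 of 9 and 0 of 22 receptor reads, which allow up to 33.3% and 13.6%. Such intervals and limits cover counting error only.

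**Figure D3:**
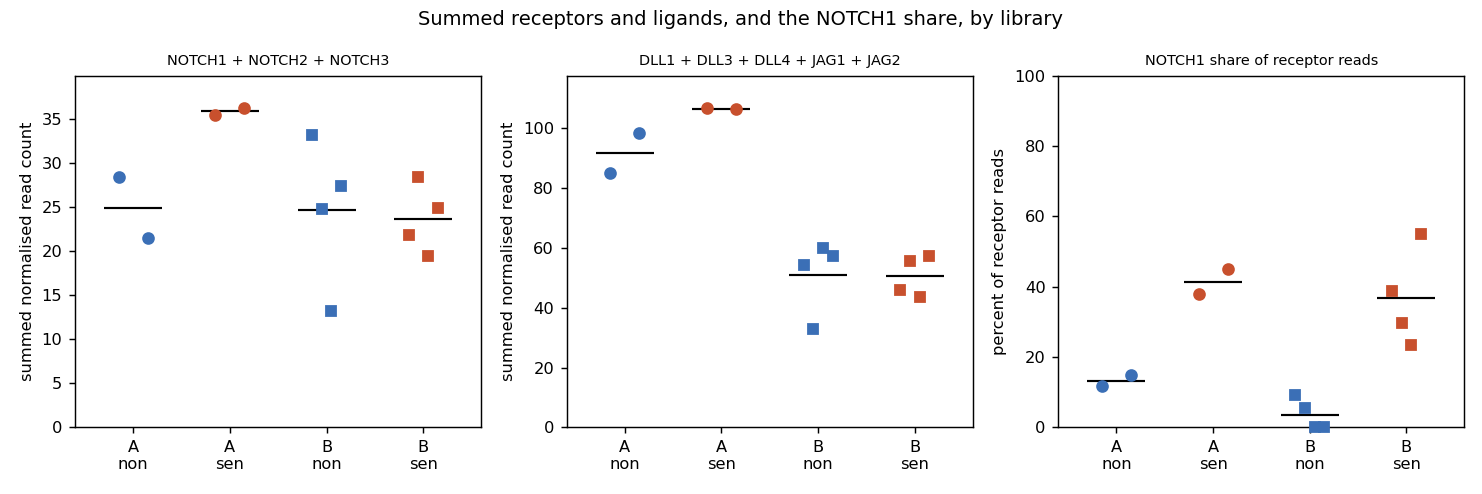
Summed normalised read counts of the 3 receptors and of the 5 ligands, and the share of the reads of these 3 receptors from NOTCH1 in percent, per library with means as black lines (circles batch A, squares batch B, blue non-senescent, red senescent). NOTCH4 is left out of the receptor sums and of the share. The sums overlap between groups within batch B, and the NOTCH1 share does not exceed 14.8% in any non-senescent library and is at least 23.5% in every senescent one.

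The ligands were expressed at low levels in both groups, and none passed the test. Summed over the 5 genes they reached 33.0 to 98.5 normalised read counts in non-senescent and 43.5 to 107 in senescent libraries. Within batch B these sums overlapped, and within batch A they were apart (85.0 and 98.5 against 106 and 107). The median share of ligand reads per library was 42.2% in non-senescent and 27.9% in senescent cells for DLL3, 23.5% and 28.6% for JAG2, 21.2% and 28.4% for DLL4, 9.58% and 12.3% for DLL1, and 0.98% and 1.27% for JAG1. The order differed between batches: DLL3 supplied 41.5% and 47.5% of ligand reads in the senescent libraries of batch A and 15.8% to 32.1% in those of batch B. Pooled over libraries, as the receptor shares were, the ligand shares differed less between groups for DLL3 (42.5% and 38.4%) and DLL4 (20.8% and 20.7%). They were 23.1% and 28.9% for JAG2, 11.1% and 10.9% for DLL1, and 2.59% and 1.19% for JAG1. Pooling gives the deeper libraries of batch A more weight. These shares were not tested.

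DLL1 (chr6:170282206-170306565, minus strand), a ligand that activates receptors on neighbouring cells, had 3.01, 7.23 and 16.1 normalised read counts as lowest, median and highest in non-senescent libraries and 3.43, 8.89 and 12.1 in senescent ones. Its log2 fold change of 0.14 had a 95% interval of −0.69 to 0.98 (adjusted p = 0.808, limma). DLL1 overlaps FAM120B on the opposite strand, and whether reads were counted by strand is not given in the sources used here.

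DLL3 (chr19:39498895-39508481, plus strand), a Delta-like protein known to stay mostly inside the cell and to inhibit signalling, had higher values in every library of batch A than in any of batch B. It had 33.9 and 52.5 normalised read counts in the non-senescent and 50.7 and 44.1 in the senescent libraries of batch A. In batch B it had 24.1, 2.75, 19.0 and 27.3 in non-senescent and 7.27, 17.8, 10.3 and 9.96 in senescent libraries. The non-senescent libraries of batch B varied by 59.7% of their mean, where read counting alone gives 27.5%. The log2 fold change was −0.19 with a 95% interval of −1.06 to 0.68 (adjusted p = 0.754, limma).

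DLL4 (chr15:40929340-40939073, plus strand), best known as the ligand of blood vessel endothelium, had 7.31, 13.1 and 19.5 normalised read counts as lowest, median and highest in non-senescent and 12.6, 17.0 and 19.9 in senescent libraries. The log2 fold change was 0.34 with a 95% interval of −0.20 to 0.89 (adjusted p = 0.318, limma), which was −0.09 within batch A against 0.56 within batch B. The endothelial markers VWF and TEK had no reads. CDH5 had means of 0.362 and 0 normalised read counts in non-senescent and senescent libraries, and KDR 2.64 and 0.632. PECAM1 had means of 8.75 and 7.49, and ESAM 32.0 and 8.25. The summed endothelial list ran from 27.2 to 73.0 in non-senescent and 10.8 to 25.2 in senescent libraries.

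JAG1 (chr20:10637684-10673999, minus strand) was at the edge of detection, with 11 reads in all non-senescent and 7 in all senescent libraries, never more than 4 per library. It had no read in 5 of 12 libraries, each of which is still compatible with up to 3 reads. A difference was not detectable at this depth; without the filter its log2 fold change was −0.23 (95% interval −1.17 to 0.72, adjusted p = 0.743, limma).

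JAG2 (chr14:105140982-105168824, minus strand) was the ligand with the narrowest interval. In batch A it had 21.1 and 19.9 normalised read counts in non-senescent and 30.1 and 30.8 in senescent libraries, which did not overlap. In batch B it had 12.05, 11.01, 17.5 and 8.70 in non-senescent and 12.1, 17.8, 13.7 and 16.2 in senescent libraries, which did. The log2 fold change of 0.38 (SE 0.24, 95% interval −0.12 to 0.87) was not called (adjusted p = 0.228, limma), although the two-sided exact permutation test of this gene alone gave p = 0.0381. JAG2 overlaps an unnamed lncRNA on its own strand.

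HES1 (chr3:194136148-194138732, plus strand, 4 exons), the repressor that is the standard readout of Notch activity, rose in senescent cells, and its rise came from batch B. There it had 21.1, 24.8, 33.6 and 7.45 normalised read counts in non-senescent libraries and 63.0, 64.0, 51.5 and 62.3 in senescent ones, without overlap. In batch A it had 47.8 and 45.3 in non-senescent and 36.4 and 48.3 in senescent libraries, which overlapped. Over both batches the log2 fold change was 1.01 (SE 0.33, 95% interval 0.31 to 1.72, adjusted p = 0.0229, limma; exact permutation p = 0.0190). Within batches it was 1.59 in B (95% interval 0.88 to 2.31) and −0.15 in A (−1.16 to 0.87). The difference between batches was 1.74 (SE 0.58) and had an adjusted p of 0.149 (limma, unadjusted p = 0.00918). It did not pass the limit of 0.1 there, and did with edgeR on the recovered reads (1.58, adjusted p = 0.0700).

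No member passed the limma test of a difference between batches, which 4.21% of all tested genes passed; at an unadjusted p under 0.05 it was 1 member with limma and 1 with edgeR, HES1 in each. The senescent libraries of batch B varied by 9.71% of their mean in HES1, below the 13.9% that counting alone gives, and the non-senescent ones by 50.0% against 25.6%.

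HES6 (chr2:238238267-238240662, minus strand, 4 exons) was by far the member with the most reads, 282 to 4996 per library, and had the smallest p. In batch A it had 2777 and 2640 normalised read counts in non-senescent and 868 and 815 in senescent libraries. In batch B it had 1090, 1158, 1086 and 1146 in non-senescent and 342, 366, 377 and 400 in senescent libraries. Every senescent library lay below every non-senescent one, although levels in batch A were above those in B. The log2 fold change was −1.62 (SE 0.06, 95% interval −1.76 to −1.49, adjusted p = 5.4e-12, limma), which is 3.08-fold lower, with −1.69 within batch A and −1.59 within batch B. The exact permutation test gave p = 0.00476, the smallest possible. By p-value HES6 ranked 17 of 13847 genes, and by size of the log2 fold change it was the 371st lowest. Libraries of batch B varied by 3.32% and 6.49% of their mean in the non-senescent and senescent group, where counting alone gives 3.52% and 5.59%.

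Genes of cell division also fell between the groups. All 8 proliferation markers fell (log2 fold changes −3.57 to −2.04), and their sum was 5852 to 6486 normalised read counts in non-senescent and 1023 to 1204 in senescent libraries; their part in the fall of HES6 was not tested. The 2 genes whose batch-centred log2 levels followed HES6 most closely over the 12 samples, among 11681 genes, were DSN1, a kinetochore protein, and UBE2C, a ubiquitin-conjugating enzyme of mitosis (Pearson r = 0.997 and 0.996). Their log2 fold changes were −1.85 and −3.27. Only batch was centred, so each r includes the difference between the groups and does not show that libraries within a group vary together. HES6 lies within a longer lncRNA on the opposite strand, whose reads cannot be told apart from it if counting ignored strand.

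The ratio of HES6 to HES1 reads was lower in every senescent library than in any non-senescent one, a description that was not tested. It was 58.1 and 58.3 in non-senescent and 16.9 and 23.9 in senescent libraries of batch A. In batch B it ran from 32.3 to 154 in non-senescent and from 5.42 to 7.31 in senescent libraries.

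**Figure D4:**
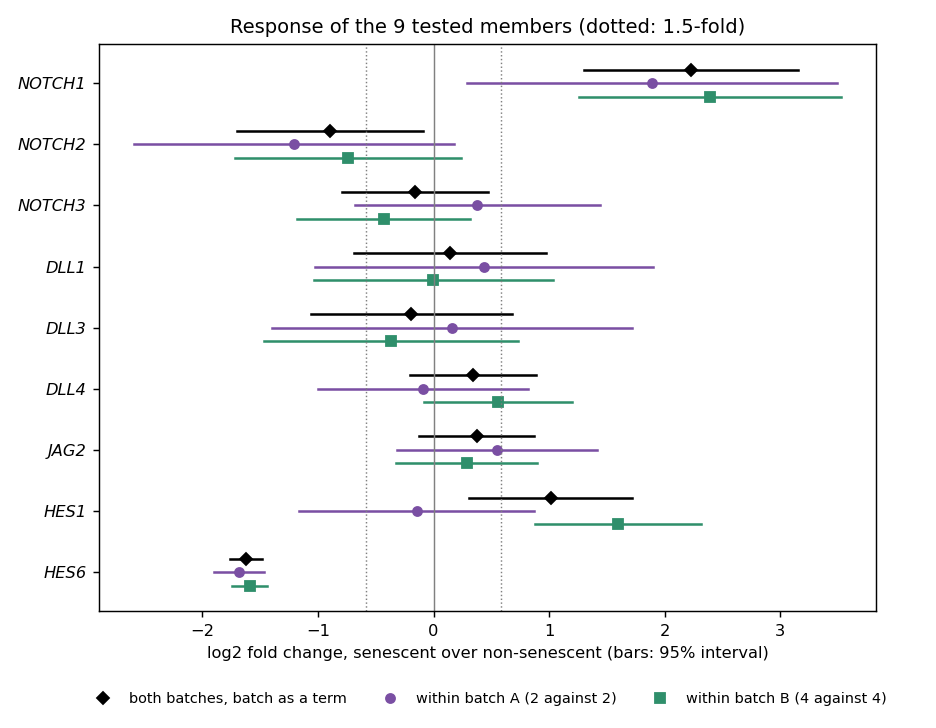
Log2 fold changes, senescent over non-senescent, of the 9 tested members with 95% intervals: black diamonds for both batches with batch as a term, purple circles within batch A (2 against 2), green squares within batch B (4 against 4). NOTCH1 (2.23) and HES6 (−1.62) have intervals away from 0 in both batches, and the HES1 estimate is 1.59 in batch B and −0.15 in batch A.

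Among genes of similar pattern, by the same measure over the 12 samples, NOTCH1 was followed most closely by MMP24OS and C1orf116 (Pearson r = 0.96 for each), NOTCH2 by NPC1 (0.96), and HES1 by ANKRD11 (0.96) and TNRC6B (0.95). NOTCH3 was followed by PSMA6 (0.94), DLL1 by SCN3B (0.96), DLL3 by SMIM15 (0.88), DLL4 by ATF2 (0.89) and JAG2 by KIAA1024L (0.91). All share libraries and depth with the member, and were picked as the highest of 11681 or 11682 values. These r values also include any difference between the groups, as only batch was centred.

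The other genes of the pathway were taken from 9 lists of 66 genes by role. Of these, 57 were tested, 9 rose, 5 fell and 43 were not called, which is 24.6% called against 23.4% of all tested genes. Their median log2 fold change was 0.04.

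The enzymes that cut the receptor included 2 that rose and none that fell among 9. PSEN2, a catalytic presenilin of γ-secretase, had a median of 54.1 normalised read counts (44.7 to 79.5) in non-senescent and 115 (54.8 to 151) in senescent libraries, which is 0.89 higher on the log2 scale (SE 0.18, adjusted p = 0.000669, limma). All of its span lies within that of another protein-coding gene on the same strand, and how reads were split between them was not tested. APH1B, a scaffold subunit of the same complex, had 94.9 to 225 and 184 to 339 normalised read counts and rose by 0.79 (SE 0.11) on the log2 scale, without overlap within either batch. Of the genes that attach sugars to the receptor, 1 of 5 tested rose, POGLUT1, the O-glucosyltransferase (0.78, SE 0.15). Its libraries did not overlap, with 42.2 to 71.1 normalised read counts in non-senescent and 74.5 to 121 in senescent cells.

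Of 4 ubiquitin ligases that act on ligands, NEURL1 fell, by 1.04 on the log2 scale (SE 0.13), with 457 to 630 normalised read counts in non-senescent and 183 to 417 in senescent libraries. Of 7 tested genes of receptor turnover DTX1, a Deltex ubiquitin ligase, rose by 1.49 (SE 0.32), from a median of 15.1 to 34.6. Within the RBPJ activation complex 1 of 8 genes rose, MAML2, a Mastermind coactivator (median 6.19 to 19.3, log2 fold change 1.48, SE 0.33). RBPJ itself, at a mean of 397 and 409 normalised read counts, was not called (log2 fold change 0.05, SE 0.09, adjusted p = 0.696, limma).

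Co-repressors that RBPJ or HES proteins recruit moved in both directions, with 2 of 12 higher and 2 lower. TLE3, a Groucho-family co-repressor, had 83.4, 54.8, 30.1, 20.6, 21.9 and 14.9 normalised read counts in non-senescent and 9.43, 6.04, 8.48, 1.05, 1.14 and 7.47 in senescent libraries, in the order A1, A2 and B1 to B4. All senescent libraries lay below all non-senescent ones, and the log2 fold change was −2.57 (SE 0.40). Its relative TLE2 fell by 0.83 (SE 0.13), while KDM5A, a histone H3K4 demethylase, rose by 0.72 (SE 0.13). TLE4, which was named after its values were seen, rose by 0.67 (SE 0.11).

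Of 4 other receptors and atypical ligands, DNER, a membrane protein expressed in neurons, rose (median 21.2 to 40.4, log2 fold change 0.90, SE 0.26). NOTCH4 fell by 0.60 (SE 0.18, adjusted p = 0.0125, limma). It had 42.2 and 56.4 normalised read counts in the non-senescent and 24.2 and 19.3 in the senescent libraries of batch A. In batch B it had 85.8, 77.1, 99.4 and 94.4 in non-senescent and 88.5, 64.0, 65.2 and 66.0 in senescent libraries, which overlapped, and batch B alone gave −0.33 without a call. The 3′ end of NOTCH4 overlaps GPSM3 on the same strand.

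The genes listed here as other targets of the pathway had few or no reads, apart from HES2 (mean 96.8 and 96.7 normalised read counts). Of 8 genes only HES2 (log2 fold change −0.01) and HEY1 (0.67, adjusted p = 0.242, limma) were tested, and neither was called. The log2 fold change of HEY1 was −0.63 within batch A and 1.32 within batch B, and that of HES2 was 0.06 and −0.05. The others had few reads, summed here without correction for depth over the 6 libraries of the non-senescent and then of the senescent group: 2 and 15 for HES5, 7 and 32 for HEYL, 10 and 3 for HEY2, 6 and 5 for HES7, 0 and 4 for NRARP, and 0 and 0 for HES4.

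Among endocrine factors, PAX4, a factor of beta-cell specification, rose by 1.57 on the log2 scale (SE 0.26), with 13.8 to 28.6 normalised read counts in non-senescent and 40.9 to 110 in senescent libraries. INSM1, a zinc-finger factor of endocrine cells, fell by 0.63 (SE 0.06), just past the fold limit. NEUROG3, the gene HES1 represses in progenitors, had 12 and 1 reads in the non-senescent and 12 and 12 in the senescent libraries of batch A, and no read in any of the 8 libraries of batch B. It stayed under the filter and was not tested.

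**Figure D5:**
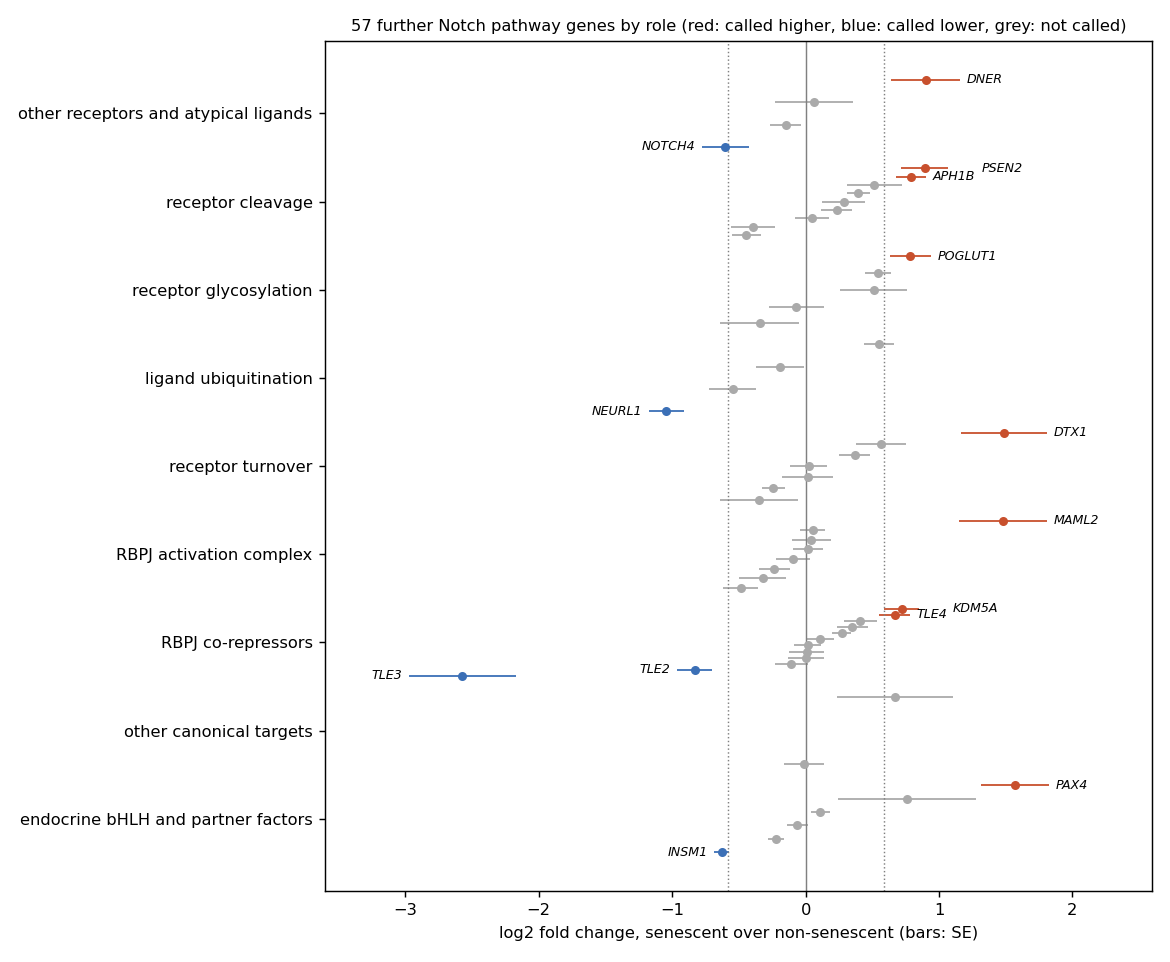
Log2 fold changes, senescent over non-senescent, with SE bars for the 57 tested pathway genes by role; red points were called higher, blue lower, grey not called, and dotted lines mark 1.5-fold. The called genes, 9 higher and 5 lower, are spread over 8 of the 9 roles, and TLE3 (−2.57) lies farthest from 0.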

How the data were processed

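CEL-seq2 libraries of poly(A) RNA were made from 6 non-senescent and 6 senescent EndoC-βH3 samples. Groups, the letters read as batches and replicate names came from the titles in the labels. Reads were trimmed by the authors with Cutadapt, quantified with Salmon 0.13.1 on GRCh38 and normalised with DESeq2. Annotation, handling of molecular identifiers and strand of counting are not given in the sources used here. The deposited signal per gene is a read number divided by a size factor per sample, called a normalised read count. The deposited table also holds the authors' own comparison (a mean, log2 fold changes with errors, a test score, p-values and adjusted p-values), which was not used.

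Dividing each column by its smallest non-zero value gave whole numbers (100% of 196021 non-zero values, tolerance 0.01), so whole reads were recovered; totals were 4672924 to 17106776 per library. Since the values are not raw counts, groups were compared mainly with limma 3.58.1 (R 4.3.3), with intensity trend, on log2(value + 1), which understates changes of low genes, for 13847 genes with a mean of at least 5, with batch and group as terms. A batch by group interaction was tested at an adjusted p under 0.1. An exact permutation test within batches, two-sided, was added for each member. edgeR 4.0.16 and DESeq2 1.42.0 on the recovered reads, pseudocounts of 0.1 and 8, no filter or a mean of at least 20, other scalings, no batch term, each batch alone, a replicate block, no trend and leaving out each library were alternatives. The steps were tested on simulated data with 200 changed genes of all levels. There 76.7% of 2-fold and 94.8% of 4-fold changes were recovered, and 95% of 180 calls were changed genes. Recovery among low genes alone was not tested. Replicate libraries differed beyond sampling noise (chi-square per degree of freedom 4.14 to 7.66 over 14 pairs). Replicate numbers were used as pairs only in the replicate block.

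The members and lists were chosen with earlier results of these data known. Named pathway genes were up to 3 called genes per list with the largest absolute log2 fold change, plus NOTCH4 and NEUROG3; the 2 genes most like each tested member were taken by Pearson r among genes with a mean of at least 20, and not all of them are reported here. Positions came from GENCODE 44 on GRCh38 and promoters from RefSeq (GRCh38.p14). Of 5 NOTCH2NL symbols searched, 4 were not in the table used here.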

Additional observations from a re-analysis of the deposited data

Results flagged for a closer look

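The response of 3 of the 57 tested pathway genes (5.26%, against 4.21% of all tested genes) differed between batches by the limma interaction test, at adjusted p-values near the limit of 0.1. NEURL1 had a log2 fold change of −0.56 within batch A and −1.28 within batch B, a difference of −0.72 (adjusted p = 0.0957, limma). For TLE2 it was −0.35 and −1.07, a difference of −0.73 (adjusted p = 0.0999, limma). For NUMBL, an inhibitor of Notch receptors that was named after its values were seen, it was −0.15 and 0.92, a difference of 1.07 (adjusted p = 0.0825, limma); its senescent libraries lay below the non-senescent ones in batch A (47.7 and 49.4 against 53.2 and 54.5 normalised read counts) and above them in batch B (239 to 354 against 116 to 208). In 50 groups of 6 libraries, both batches together, no library of a member or named gene stood apart from the rest by Dixon's limit of 0.625. Batches were not centred there, so a library apart only within its batch could be missed.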

How the results depend on the processing

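The number of members called was 4, and 2 when a mean of at least 20 was required, a filter that only DLL3, HES1 and HES6 passed; leaving out single libraries gave 3 to 4. The member lost was NOTCH2, with a log2 fold change of −1.08 to −0.77 in those fits. It lost its call without non-senescent A1, A2, B1 or B4 and without senescent A2, B1 or B4 (adjusted p 0.0367 to 0.150 over the 12 fits, limma), and also with a pseudocount of 8, no filter, no batch term, batch B alone and the replicate block. Under the block 3 members were called, with NOTCH2 at an adjusted p of 0.129 (limma, and 0.0238 to 0.197 over all its alternatives, the lowest being the exact permutation p), and the number of pathway genes called stayed at 14. Same-numbered samples deviated together by correlations of −0.051 to 0.016, which gave no sign of pairing. These correlations do not settle whether the numbers pair the samples. They run over all tested genes, low ones included, and batch A gives a single comparison. NOTCH1 (2.04 to 2.46), HES1 (0.69 to 1.21) and HES6 (−1.65 to −1.60) kept their calls without any single library. Signs reversed in batch A alone for NOTCH3 (0.38), DLL3 (0.16), DLL4 (−0.089), HES1 (−0.15) and NUMBL (−0.15), in batch B alone for DLL1 (−0.00081), without non-senescent B1 for DLL1 (−0.054, with 0.39 as the highest without another library) and without non-senescent B4 for DLL3 (0.017, with −0.60 as the lowest); the cause was not tested. The number of members that differed between batches was 0 and became 1 (HES1) with a pseudocount of 8, with edgeR and without non-senescent B3 or B4 (range 0 to 1), with adjusted p-values of 0.0685 to 0.0935 there and of up to 0.472 under the others. Pathway calls numbered 14, 9 without the batch term and 14 to 17 without single libraries; calls over all genes were 3237, and 2143 without the batch term. Of 389 values of 15 named pathway genes under the alternatives, 365 kept direction and side of the limit. NOTCH4 lost its call without non-senescent A2, senescent A1 or senescent A2 (−0.48, −0.57 and −0.49). Scaling every library to the same total moved the median of all genes to −0.09 and the share of higher genes among calls from 49.6% to 36.9%, with the same number of members called. Depth limits NOTCH1, NOTCH2, DLL1 and JAG1 most, at 0 to 30 reads per library.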
